A study of Drosophila melanogaster with 4 samples.

Results

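The genes described here are the fly enzymes that break down starch-derived sugars in the gut, together with a pair of mannosidases: tobi, Amyrel, every gene whose symbol begins with Mal-A, LManIII and LManV. They were chosen by gene symbol through their FlyBase transcript identifiers. Of the 1761 transcripts in the deposited table, 8 belonged to them, 1 each of tobi, Amyrel, Mal-A1, Mal-A2, Mal-A6, Mal-A7, LManIII and LManV. The table contained no row for the other 4 Mal-A genes, Mal-A3, Mal-A4, Mal-A5 and Mal-A8, and nothing is said of their levels. In the intestine of the kdm5 mutant, 7 of the 8 transcripts rose and the LManV transcript fell.

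Alpha-amylases cut starch into short sugar chains, and maltases, which are alpha-glucosidases, release glucose from those chains and from maltose. In the fly these enzymes are secreted by the gut epithelium, and several of their genes are known to be turned down when the diet is rich in sugar. Alpha-mannosidases remove mannose from the sugar chains of glycoproteins, and the LMan genes are named for a lysosomal type of this enzyme.

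RNA was measured by sequencing in dissected intestines of female *Drosophila melanogaster* aged 3 to 5 days, kept at 25 °C. There were 2 samples of a kdm5 mutant, with the allele pair k6801 and 10424, and 2 of the white-eyed laboratory strain w1118, and every sample pooled 30 intestines. Kdm5 encodes a histone demethylase that acts on lysine 4 of histone H3. The design asks which genes differ between the mutant and the wild type in this tissue. The sources used here do not describe the lesions of these alleles. The labels do not say whether the samples of a genotype came from separate crosses, so the p-values rest on the spread of these samples alone, part of which may be technical.

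Levels are in TPM, a per-length measure of transcript abundance that can be compared between genes. Depth cannot be recovered from TPM and is unknown for these libraries. The p in the authors' deposited table lay below 0.05 for every row. Each gene described here is therefore present because its deposited p passed that threshold, and presence is not a result. The listed Kdm5 transcript had 0.0768 and 0.0361 TPM in the mutant libraries, against 1.43 and 0.639 TPM in w1118, on the side the labels give, though at these low levels its change was not called (log2 change -0.92, limma adjusted p = 0.11 by the annotation-wide rule given below). The w transcript, whose gene is mutated in w1118, had 8.82 and 13.4 TPM in the mutant libraries, against 0 and 0.013 TPM in w1118. The ry transcript, of another eye colour gene, had 31.5 and 28.3 TPM in the mutant libraries, against 9.02 and 7.9 TPM in w1118 (log2 change 1.71, adjusted p = 0.005 by the same rule). The w and ry transcripts thus differed between the genotypes. Whether that difference belongs to the kdm5 alleles themselves or to the background is not known from the sources used here. A difference in background and an effect of the kdm5 alleles cannot be told apart. In pooled tissue, fewer cells of a type and less RNA per cell cannot be told apart either.

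The changes were tested with limma on log2(TPM + 1) across the whole table. limma pooled the spread over the listed transcripts alone, which had been selected on the comparison. The SEs and p-values may therefore be too small, and counting more transcripts as tests does not correct that. Rose and fell are used of transcripts that passed adjusted p < 0.05 with all 35694 annotated transcripts counted as tests, called annotation-wide here. By that rule 30.7% of the listed transcripts were called, 22.0% as higher and 8.69% as lower in the mutant. All 8 transcripts described here were called. They were chosen with earlier results of these data known, so this count is not a result about the group. Adjusted over the listed transcripts alone, 77.1% of the table passed, and so did all 8. The authors' deposited p for these 8 was less extreme. It ran from 0.0016 for tobi to 0.038 for Mal-A1, ranks 197 and 1515 among the listed transcripts. The median log2 change of all listed transcripts was 0.86, and 1036 stood higher and 725 lower in the mutant. When the libraries were rescaled to an equal median of the listed transcripts, that median became 0.32 and the share of higher calls became 23%, against 71.7% as deposited. The 8 transcripts kept their direction under this scaling, while Mal-A1, Mal-A2, Mal-A7 and LManV were no longer called.

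**Figure D1:**
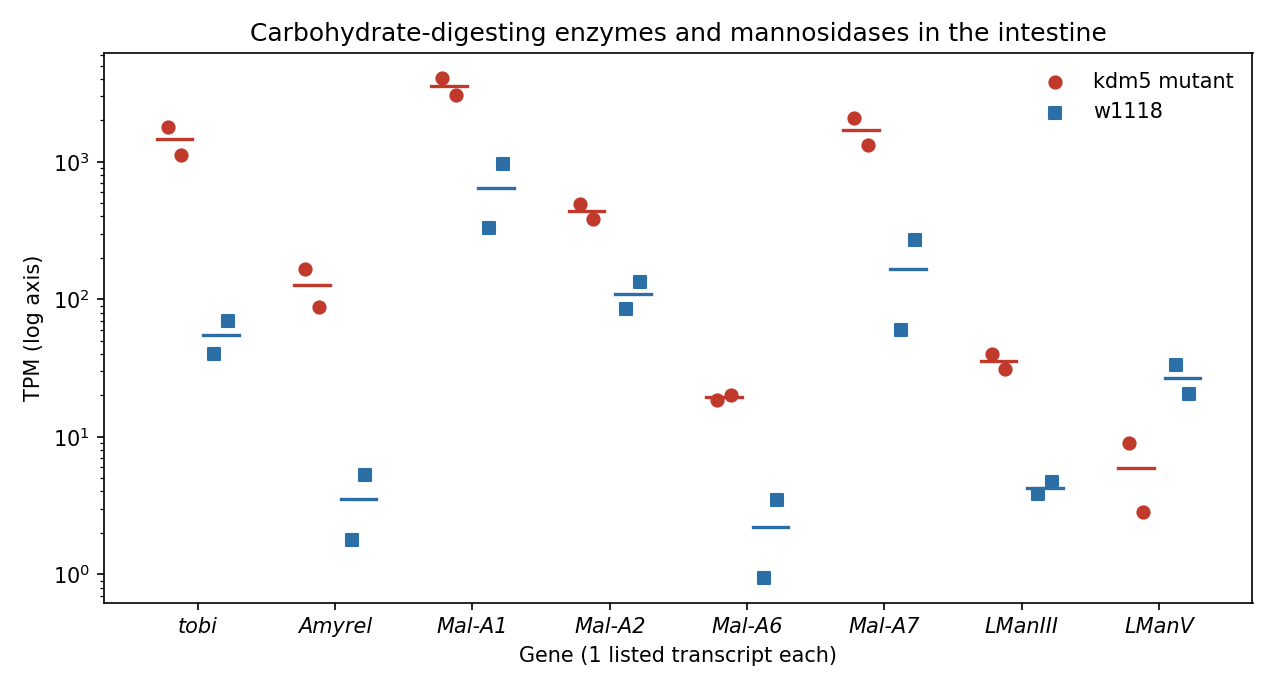
TPM (log axis) of the listed transcript of each gene in the kdm5 mutant (red circles) and w1118 (blue squares); each point is 1 library of 30 pooled intestines and each bar the mean of 2. The mutant points lie above both w1118 points for 7 genes and below them for LManV.

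The alpha-glucosidase tobi, whose name stands for target of brain insulin and which is known in the fly to respond to diet and to insulin-like peptides, had 1803.1 and 1118.1 TPM in the mutant libraries, against 40.1 and 69.4 TPM in w1118. Both mutant libraries were high, and the lower of them was 16.1 times the higher w1118 library. The ratio of means was 26.7, and it ran from 20.4 to 36.4 when 1 library was left out. On the log2 scale tobi rose by 4.72 ± 0.29 (SE, 2 libraries per group; limma annotation-wide adjusted p = 1.9e-08). By size of change it was number 9 of the 1761 listed transcripts, and by mean level it was number 17 in the mutant and number 229 in w1118.

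The Mal-A genes encode a family of maltases, and 4 of its 8 members were in the table, all of them higher in the mutant. Mal-A1, the most abundant, had 4069.7 and 3083.1 TPM in the mutant libraries, against 332 and 965 TPM in w1118. The w1118 libraries differed from each other by 2.9 times, more than the mutant libraries did (1.32 times), and the groups did not overlap. Its ratio of means was 5.51, and without w1118 replicate 2 it was 10.8. On the log2 scale it rose by 2.64 ± 0.35 (SE, annotation-wide adjusted p = 0.00016).

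Mal-A7 had the same order of libraries, with 2090.3 and 1325 TPM in the mutant libraries, against 60.2 and 271 TPM in w1118. Its w1118 libraries were 4.49 times apart, the widest gap within a genotype among the 8 transcripts, and yet both lay below both mutant libraries. The ratio of means was 10.3, and it ran from 6.31 without w1118 replicate 1 to 28.4 without w1118 replicate 2. The log2 change was 3.69 ± 0.44 (SE, annotation-wide adjusted p = 4.2e-05).

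Mal-A2 had 490 and 384 TPM in the mutant libraries, against 84.7 and 133 TPM in w1118, a ratio of means of 4.01 that stayed between 3.28 and 5.16 when 1 library was left out. Of the 7 transcripts that rose, it had the smallest log2 change, 2.02 ± 0.26 (SE, annotation-wide adjusted p = 0.00013). Mal-A6 was far less abundant, at 18.6 and 20 TPM in the mutant libraries, against 0.945 and 3.44 TPM in w1118. The mutant libraries nearly coincided, and the w1118 libraries were 3.64 times apart. Its ratio of means was 8.83, with 5.63 without w1118 replicate 1 and 20.5 without w1118 replicate 2. The log2 change was 2.79 ± 0.42 (SE, annotation-wide adjusted p = 0.00053), and without w1118 replicate 1 the adjusted p was 0.12.

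The amylase side of the group was represented by Amyrel, an amylase-related gene whose product is close to the starch-cutting alpha-amylases. It had 165 and 87.7 TPM in the mutant libraries, against 1.78 and 5.27 TPM in w1118, with both mutant libraries far above both w1118 libraries. By mean level it was number 153 of the listed transcripts in the mutant and number 1235 in w1118. The ratio of means was 35.8, the highest of the group, and it ran from 24 upwards when 1 library was left out (70.8 without w1118 replicate 2). The log2 change was 4.86 ± 0.39 (SE, annotation-wide adjusted p = 4e-07), number 7 of the listed transcripts. The classical amylase genes Amy-p and Amy-d had no transcript in the table.

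The pair of mannosidases went in opposite directions. LManIII had 39.7 and 30.9 TPM in the mutant libraries, against 3.86 and 4.67 TPM in w1118, and its replicates were close in both genotypes. The ratio of means was 8.28 (7.25 to 9.31 when 1 library was left out), and the log2 change was 2.78 ± 0.34 (SE, annotation-wide adjusted p = 6.3e-05). LManV had 9.05 and 2.84 TPM in the mutant libraries, against 33.2 and 20.5 TPM in w1118. It was the one transcript of the group with its low values in the mutant, and the mutant libraries were 3.19 times apart. The mean in w1118 was 4.52 times that in the mutant (9.47 times without mutant replicate 1 and 2.97 times without mutant replicate 2), and the log2 change was -2.13 ± 0.42 (SE, annotation-wide adjusted p = 0.0082). This call was lost without w1118 replicate 1 (adjusted p = 0.91) and without w1118 replicate 2 (0.053).

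The same opposite changes can be read as a ratio within each library, which is no further result. The ratio of LManIII to LManV was 4.39 and 10.9 in the mutant libraries, against 0.116 and 0.227 in w1118. Their summed TPM overlapped between the genotypes, with 41.3 ± 10.6 in the mutant and 31.1 ± 8.37 in w1118 (SD, n = 2) and an exact two-sided permutation p of 0.667. With 2 samples per group the smallest p such a test can give is 0.333.

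Leaving out a mutant library ended all annotation-wide calls. Without mutant replicate 1 or mutant replicate 2, limma called 0 transcripts in the whole table, with 1293 and 1217 at unadjusted p < 0.05, among them all 8 described here. Over the listed transcripts alone, 6 and 5 of the 8 passed in those fits.

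**Figure D2:**
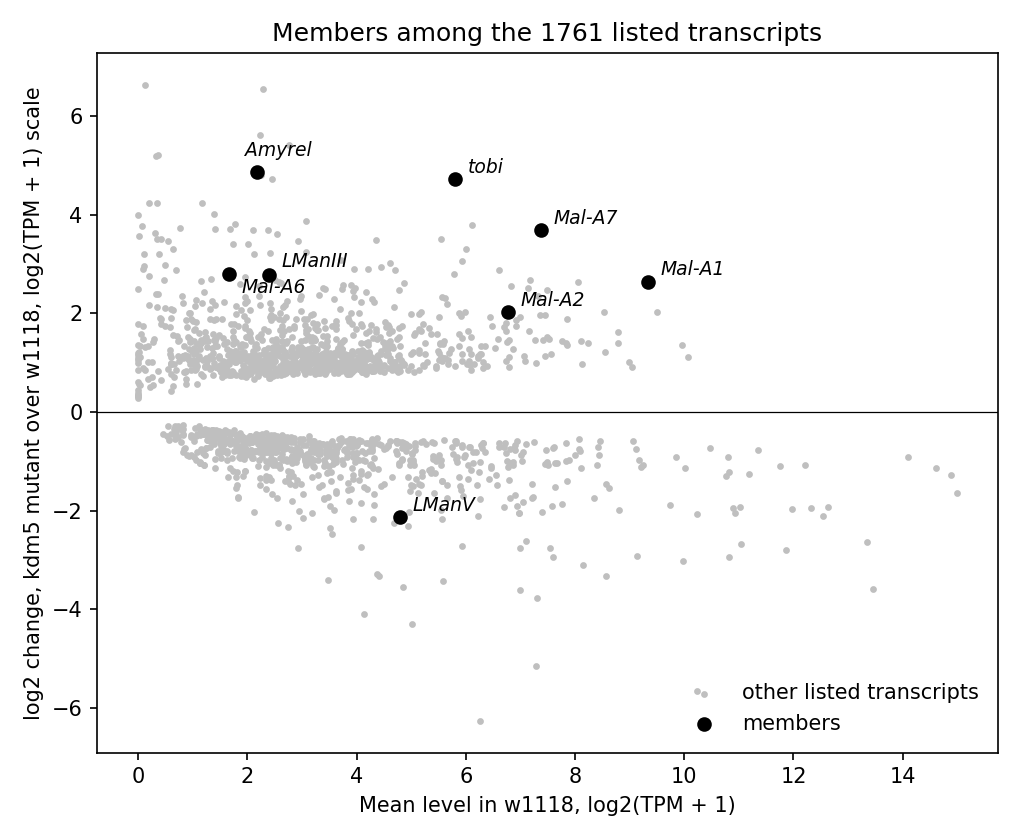
Each listed transcript by its mean level in w1118, log2(TPM + 1), and its log2 change in the kdm5 mutant over w1118; grey points are the other listed transcripts and black points the 8 described here. The gap around 0 reflects that only transcripts with a p below 0.05 were listed; tobi and Amyrel lie near the top at 4.72 and 4.86, and LManV at -2.13.

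In the mutant the order of mean levels was Mal-A1 (3576 ± 698 TPM), Mal-A7 (1708 ± 541), tobi (1461 ± 484), Mal-A2 (437 ± 74.3), Amyrel (126 ± 54.5), LManIII (35.3 ± 6.19), Mal-A6 (19.3 ± 0.982) and LManV (5.94 ± 4.39; SD, n = 2). Of the neighbours in this order, only Mal-A7 and tobi overlapped between libraries, though Mal-A7 was above tobi within each mutant library. In w1118 the order was Mal-A1 (649 ± 447 TPM), Mal-A7 (165 ± 149), Mal-A2 (109 ± 34.4), tobi (54.8 ± 20.7), LManV (26.9 ± 8.95), LManIII (4.26 ± 0.578), Amyrel (3.53 ± 2.47) and Mal-A6 (2.19 ± 1.76). There Mal-A7 overlapped with Mal-A2, and Amyrel overlapped with both LManIII and Mal-A6. Within w1118 replicate 1, Mal-A7 lay below Mal-A2 and Amyrel below LManIII, and both orders were reversed within w1118 replicate 2. Amyrel was above Mal-A6 within each w1118 library. Mal-A1 led in both genotypes, and LManV was last in the mutant and in the middle in w1118.

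The 8 transcripts together held 8685 and 6052 TPM in the mutant libraries, against 557 and 1472 TPM in w1118. The ratio of the mean sums was 7.26, and without w1118 replicate 2 it was 13.2. The exact two-sided permutation p was 0.333, the smallest this design allows. Taking each library's total as 1000000 TPM, the 8 made up 0.737% of transcripts in the mutant and 0.101% in w1118. Mal-A1 supplied 46.9% and 50.9% of the summed TPM in the mutant libraries, against 59.6% and 65.5% in the w1118 libraries. The share of tobi was 20.8% and 18.5% in the mutant libraries, against 7.2% and 4.71% in w1118.

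Within a genotype most of the transcripts differed between the 2 libraries in the same direction. Mutant replicate 1 was above mutant replicate 2 for 7 of the 8 transcripts, with Mal-A6 as the exception, while this held for 18.3% of all listed transcripts. w1118 replicate 2 was above w1118 replicate 1 for 7 of the 8, with LManV as the exception, against 30.1% of all listed transcripts. Among listed transcripts that were higher in the mutant, these shares were 15.6% for the mutant libraries and 43.6% for the w1118 libraries. With 2 libraries per genotype this is a single difference for each transcript. The 7 transcripts that rose therefore cannot be taken as independent of each other. Both mutant values lay on one side of both w1118 values for all 8 transcripts, as they did for 94.8% of the whole table.

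In the Ensembl annotation of BDGP6.54, tobi (FBtr0084847) lies on chromosome arm 3R, from 25344761 to 25346921 on the minus strand, and has 2 exons and 657 codons before the stop. The 8 Mal-A genes form a cluster of 24.3 kb on 2R. Mal-A1 (FBtr0088759, 8449664 to 8451904, minus strand) and Mal-A2 (FBtr0088747, 8453627 to 8455782, plus strand) stand at one end of it. Mal-A6 (FBtr0346647, 8465158 to 8467595, plus strand) and Mal-A7 (FBtr0088757, 8469438 to 8471663, minus strand) lie near the other end. The unlisted Mal-A3, Mal-A4 and Mal-A5 lie between these pairs, and the listed genes sit on both strands. The listed Mal-A transcripts each have 3 exons and code for 567 to 601 residues.

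Amyrel (FBtr0087117, 16651095 to 16652699, minus strand) is also on 2R, apart from the maltase cluster, with 2 exons and 493 residues. LManIII (FBtr0340230, 8765273 to 8768710) and LManV (FBtr0345752, 8772946 to 8776263) lie on the minus strand of 2L in a cluster that runs LManIII, LManIV, LManV, LManVI over 16 kb. Transcripts that went in opposite directions thus came from genes on the same strand 4235 bases apart, with the unlisted LManIV between them. Kdm5 is on the same arm, 2766 kb from LManIII. Mal-A6, Mal-A7, LManIII and LManV each have a second annotated transcript that is not in the table, so the level of those whole genes is unknown. The other 4 genes have 1 annotated transcript each.

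**Figure D3:**
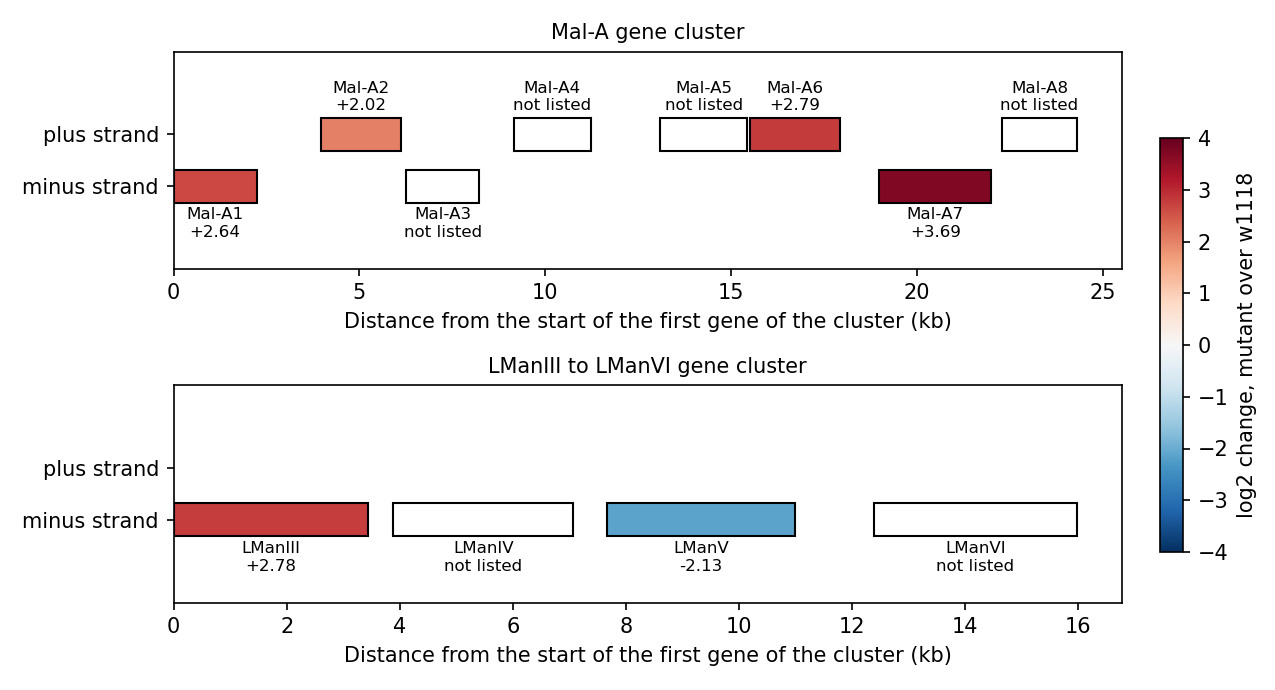
The Mal-A cluster (top) and the LManIII to LManVI cluster (bottom), by distance in kb from the start of the first gene; colour and number give the log2 change in the kdm5 mutant over w1118, and white boxes are genes with no listed transcript. The 4 listed Mal-A genes were all higher in the mutant, while LManIII and LManV had changes of 2.78 and -2.13.

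Of the 3 nearest annotated genes on each side of the 8 genes, 28 genes in all besides the 8 themselves, 1 had a listed transcript. This was Picot, a predicted phosphate cotransporter near Amyrel. Its more abundant listed transcript (FBtr0087114) fell by 1.72 on the log2 scale, to 42.1 and 45.2 TPM in the mutant libraries, against 174 and 123 TPM in w1118. Genes on the opposite strand overlap tobi (rha, 78 bases), Amyrel (gprs, 31 bases) and Mal-A1 (Cyp4e1, 82 bases), and none of them was listed. Whether reads were counted by strand is not stated, so reads in these overlaps cannot be assigned. Neighbouring maltases and neighbouring mannosidases are related genes, and how shared reads were divided between them is not given.

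Other enzymes of sugar digestion were few in the table. Of 16 genes in a list of amylases and alpha-glucosidases, 7 were listed, each with 1 transcript, all were higher in the mutant, and 6 rose. The median log2 change was 2.79, against 0.86 for the whole table. As 6 of the 7 are transcripts already described, this restates their values and is no further result. The 6 that rose are described above, and the 7th was Mal-B1, a maltase from another cluster, on 2L. It had 6.58 and 9.77 TPM in the mutant libraries, against 3.4 and 1.24 TPM in w1118, a log2 change of 1.53 ± 0.41 (SE, annotation-wide adjusted p = 0.086).

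Of 13 mannosidase genes 4 were listed, with 6 transcripts. Besides LManIII and LManV these were 2 transcripts each of LManII, another gene of the lysosomal family, and of beta-Man, a beta-mannosidase. All 4 stood lower in the mutant and none passed the test. The most abundant mannosidase transcript in the table was that of LManII (FBtr0080031), at 206 and 257 TPM in the mutant libraries, against 415 and 287 TPM in w1118 (log2 change -0.59, annotation-wide adjusted p = 0.9). Of 14 other glycosidases and lysosomal genes, 2 were listed, and transcripts of Npc1a, a lysosomal sterol transporter, went both ways. FBtr0343608 of that gene rose to 3.02 and 6.61 TPM in the mutant libraries, against 0.373 and 0.173 TPM in w1118. FBtr0079957 fell to 0.118 and 0.000843 TPM in the mutant libraries, against 3.78 and 2.88 TPM in w1118.

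Sugar transporters take up the glucose that maltases release. Of 15 genes in that list 4 were listed with 5 transcripts. All of these were higher in the mutant and 2 rose, against 1036 and 387 of 1761 in the whole table. CG1208, a predicted sugar transporter, had 54.7 and 52.1 TPM of FBtr0113196 in the mutant libraries, against 6.76 and 15.1 TPM in w1118. The log2 change of that transcript was 2.28 ± 0.34 (SE, annotation-wide adjusted p = 0.00056). The other listed CG1208 transcript, FBtr0113197, had 6.05 and 9.69 TPM in the mutant libraries, against 3.52 and 4.32 TPM in w1118. Its log2 change was 0.82, and it was not called. Slc45-1, of the sucrose transporter family, rose by 1.62 on the log2 scale to 4.26 and 8.54 TPM in the mutant libraries, against 1 and 1.67 TPM in w1118 (adjusted p = 0.039). Leaving out w1118 replicate 1 (adjusted p = 1) or w1118 replicate 2 (0.45) ended that call. It was also lost with the libraries rescaled to equal TPM outside the list (0.064) or to equal medians (0.13), and with a common prior variance in place of the trend with level (0.053). The call of CG1208 was lost with equal library medians (0.095).

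Among regulators tied to sugar sensing, 6 of 21 genes were listed, of which 1 rose and 1 fell. The one that fell was sug (sugarbabe), a zinc finger factor known in the fly to be induced by dietary sugar. Its listed transcript, 1 of 2 annotated, had 43.7 and 59.4 TPM in the mutant libraries, against 185 and 108 TPM in w1118. The log2 change was -1.46 ± 0.29 (SE, annotation-wide adjusted p = 0.0081). The adjusted p was 0.45 without w1118 replicate 1 and 0.084 with a common prior variance.

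The TGF-beta family ligand daw is known in the fly to take part in turning down digestive enzyme genes on a sugar diet. Its listed transcript, 1 of 3 annotated, was also low in the mutant. It stood at 0.161 and 1.05 TPM there, against 3.03 and 2.51 TPM in w1118, and did not pass (log2 change -1.29 ± 0.33 SE, annotation-wide adjusted p = 0.063). It passed with equal TPM outside the list (0.042) or equal library medians (0.0066), and did not pass with the replicate block (0.41) or a common prior variance (0.15). Its receptor babo, the sugar-induced factor cbt and the endodermal factor GATAe had listed transcripts with log2 changes of -0.28, -1.02 and -0.57, none called. Whether any of these regulators, or sug, bears on the changes of the digestive enzyme genes was not tested. A transcript of srp, also a haemocyte marker, rose to 1.03 and 0.925 TPM in the mutant, while both w1118 libraries were at or close to 0 TPM. This call was lost with equal library medians (adjusted p = 1).

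Enzymes further along sugar metabolism had many more listed transcripts. Of 19 genes of glycolysis, trehalose and glycogen, 12 were listed with 19 transcripts. Of these transcripts 8 rose and none fell, against 22.0% and 8.69% of the whole table. Their median log2 change was 1.09, against 0.86 for the whole table. The listed transcript of Gapdh1, a glyceraldehyde phosphate dehydrogenase, had 572 and 606 TPM in the mutant libraries, against 214 and 217 TPM in w1118 (log2 change 1.45 ± 0.23 SE, annotation-wide adjusted p = 0.0012). That of Gapdh2, the second gene for that enzyme, had 798 and 793 TPM in the mutant libraries, against 283 and 320 TPM in w1118 (adjusted p = 0.0017). A less abundant transcript of the isomerase Pgi (FBtr0088679) rose by 2.09 on the log2 scale and its more abundant listed one (FBtr0088681) by 1.34, the mutase Pglym78 by 1.33, and Tpi, Eno (FBtr0077909) and Pgk by 1.14, 1.13 and 1.09. Apart from the less abundant Pgi transcript, these changes were smaller than each of the 7 described above that rose, which lay between 2.02 and 4.86. The count of 8 was 3 with equal library medians and 3 with a common prior variance, 4 and 5 without a w1118 library, and 0 without a mutant library.

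**Figure D4:**
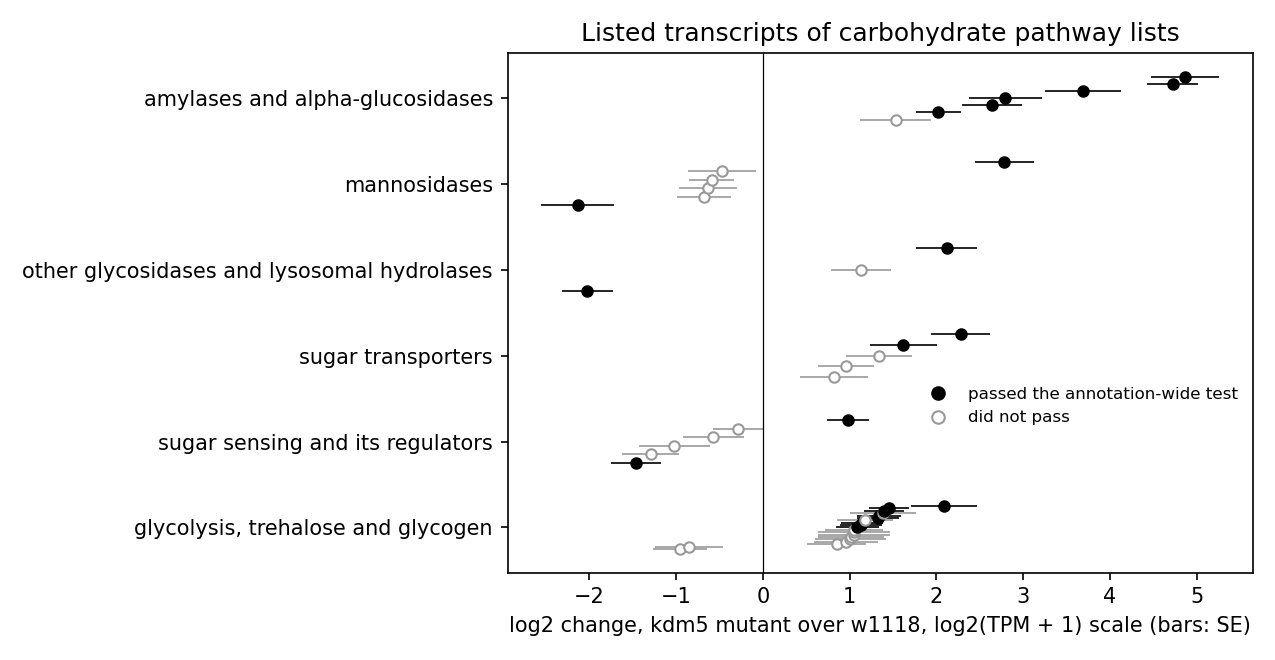
log2 change in the kdm5 mutant over w1118, with SE bars, of each listed transcript of 6 pathway lists; filled points passed the annotation-wide limma test and open points did not. The amylase and alpha-glucosidase list has 6 filled points, between 2.02 and 4.86, and the glycolysis list has its 8 filled points at 1.09 and above.

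The transcripts with the profile most like the mean profile of tobi, Mal-A1 and Mal-A7 were picked by the Euclidean distance of log2(TPM + 1) over 4 libraries, each centred on its w1118 mean. The nearest was BomBc1, a Bomanin peptide of the Toll response, at a distance of 0.425, with 23.8 and 17.4 TPM in the mutant libraries, against 0.18 and 1.22 TPM in w1118. BomS1, another Bomanin, was at 0.659 and CG9360 at 0.752. The other two of the nearest 5, FBtr0310320 and FBtr0306697, matched no annotated gene. Of the transcripts that make up the mean profile, Mal-A7 was at 0.472, Mal-A1 at 1.48 and tobi at 1.55, so Mal-A1 and tobi lay farther from their own mean than each of the nearest 5. Mal-A6 was at 1.37, LManIII at 1.57, Amyrel at 1.69, Mal-A2 at 2.44 and LManV at 8.38. Over 4 libraries in 2 groups this distance mainly measures the size of the genotype difference.

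Markers of cell types were read beside these changes, as far as they were listed. Of 5 enterocyte genes 3 were listed, and their summed TPM was 54.6 and 70.9 in the mutant libraries, against 68.9 and 59.2 in w1118. Enterocytes secrete the digestive enzymes. Myo31DF, the enterocyte marker of that list with the highest level, had 31 and 40 TPM in the mutant libraries, against 60 and 50.4 TPM in w1118. It was not called, while Myo61F rose by 1.5 on the log2 scale. The remaining listed marker, nub, had 1.16 and 2.14 TPM in the mutant libraries, against 0.502 and 0.551 TPM in w1118, and was not called.

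All 3 listed Malpighian tubule markers, out of 8, were higher in the mutant and 2 rose, against 1036 and 387 of 1761 in the whole table. The 3 summed to 129 and 143 TPM in the mutant libraries, against 50.6 and 57.3 TPM in w1118. Of 12 fat body genes 2 were listed, summing to 36.6 and 52.4 TPM in the mutant libraries, against 29.4 and 25.8 TPM in w1118, and they did not move together. The Tsf1 transcript rose by 1.71 on the log2 scale, to 29.8 and 38.2 TPM in the mutant libraries, against 9.24 and 10.1 TPM in w1118. Both listed transcripts of the other gene, Lpin, had lower means in the mutant (log2 changes -0.84 and -0.62) and were not called. The 2 listed haemocyte genes of 6 summed to 1.2 and 1.32 TPM in the mutant libraries, against 0.957 and 0.557 TPM in w1118. Of these, srp is the transcript described above, and the haemocyte marker Hml was lower in the mutant, at 0.169 and 0.393 TPM, against 0.957 and 0.557 TPM in w1118, and was not called.

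Transcripts of 4 enteroendocrine genes of 8 were listed, 7 in all, each lower in the mutant and none called, with sums of 24 and 32.3 TPM in the mutant libraries, against 58.5 and 50.7 TPM in w1118. Visceral muscle had 2 of 6 genes listed, with 96.8 and 136 TPM in the mutant libraries, against 233 and 152 TPM in w1118, and none called. The listed Mhc transcript of that list was at or close to 0 TPM in w1118. The copper cell genes lab and dve and the progenitor gene esg were lower in the mutant, with sums of at most 6.05 TPM in any library, and none was called. The calls of Myo61F, Tsf1 and the tubule marker ZnT35C were lost when either w1118 library was left out (adjusted p between 0.085 and 0.59) and with equal library medians (0.11, 0.058 and 1). That of the tubule marker Oatp58Db was lost without w1118 replicate 1 (0.11). No ovary, crop or salivary gland marker was listed. The part of other cell types in the changes of the digestive enzymes was not tested.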

How the data were processed

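Per the file headers, the deposited table holds TPM of 4 libraries and a p-value for each transcript. Cufflinks and DESeq appear in the submitters' processing notes without a stated role; aligner, build, annotation and strandedness are not given in the sources used. Whether the authors' deposited p-values, all under 0.05, were adjusted is not stated, so nothing is inferred about transcripts outside the table. Of 1761 identifiers 1741 matched Ensembl release 115 (BDGP6.54), possibly a later annotation than the authors used.

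The test was limma 3.58.1 (limma-trend, R 4.3.3) on log2(TPM + 1), which understates changes of low transcripts, mutant against w1118, all 4 libraries, no replicate block. Benjamini-Hochberg adjustment counted all 35694 annotated transcripts outside transposable elements, or the listed ones. Folds are ratios of mean TPM. The fit was tested on simulated data. The genes, lists, named genes (all listed transcripts of the genes and lists, and the 5 nearest profiles averaging at least 5 TPM) and test were chosen with earlier results of these data known. Marker and pathway lists were matched by symbol or RefSeq synonym. The 4 names that matched none were Mex1 (enterocyte), Dl (stem cell and enteroblast), nos (ovary) and cabut, an older name of cbt. No sequences are shown. Alternatives were another pseudocount (0.1), a filter (mean of at least 1 TPM), 2 rescalings, a common prior variance, a replicate block and leaving out each library. A crossed replicate block was added after seeing the data.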

Additional observations from a re-analysis of the deposited data

How the results depend on the processing

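Under 11 alternatives the 8 transcripts gave 88 values, of which 0 changed direction, 65 stayed past the annotation-wide threshold and 23 did not. Of the 23, 19 came from leaving out 1 library and 4 from rescaling to an equal median of the listed transcripts. The number of the 8 called was 4 with equal medians and 0 to 7 when 1 library was left out. Across the table, calls with all annotated transcripts counted numbered 540, and 0 to 366 when 1 library was left out; the call over the listed transcripts alone numbered 1358, and 580 to 1239. The 8 glycolysis calls became 3 with equal medians and 3 with a common prior variance, and 0 to 5 without 1 library; why was not tested. The log2 ratio of the summed TPM was 2.86, 2.71 with equal TPM outside the list and 2.32 to 3.73 when 1 library was left out. With the replicate block, 449 transcripts were called annotation-wide and 8 of the 8. Over the listed transcripts 933 were called. With the block the limma annotation-wide adjusted p of tobi was 7.8e-60, against 1.9e-08 in the main fit. The block leaves less data to estimate the spread, so a p that much smaller is not firmer evidence. The block ended the annotation-wide call of Slc45-1 (adjusted p = 0.25), while CG1208 (FBtr0113196) and sug stayed called. The labels give the samples only shared numbers, and the deviations of same-numbered libraries had a correlation of -0.188. With a crossed replicate block, chosen after seeing the data, 1167 were called annotation-wide, 1666 over the listed transcripts, and 18 of the glycolysis list. This block is 1 of the 11 alternatives counted above, and all 8 transcripts were called with it. With 2 libraries per group and TPM in place of counts, counting error cannot be given. A library left out of 1 group leaves a lone sample that is assumed to vary like the other group. The equal median scaling was applied to a list that had been selected on the comparison.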
